A study of Homo sapiens with 11 samples.

Results

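The comparison of HIV-1 plus lipoteichoic acid (LTA) with PBS asked how LX-2 cells differed after 24 h with virus and a bacterial product together. It took 6 of the 9 RNA-seq libraries and of the 11 samples in the series. LX-2 is an immortalised human hepatic stellate cell line, labelled wild type and grown in serum-containing medium. The control group received PBS (3 libraries) according to the sample labels, while the series' own text names medium for the controls; the labels' word is used here. The treated group received HIV-1BaL, a laboratory strain of the virus, at a multiplicity of infection of 0.1, together with LTA at 1 ug per ml (3 libraries). The other 3 RNA-seq libraries had the virus without LTA and entered the fit so that all groups shared 1 estimate of the spread. No group had LTA alone, so the effects of virus and LTA on this difference cannot be told apart, and viral RNA was not analysed here. Libraries with the same replicate number carry the same batch number in the labels and were paired by batch. All groups are 1 cell line, and nothing in the labels says whether the batches were separate cultures, so the p-values reflect the scatter among the libraries alone, and that scatter may be technical.

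Hepatic stellate cells lie between liver cells and sinusoids and lay down scar matrix when activated. LTA is a cell wall polymer of Gram-positive bacteria that is sensed mainly by TLR2, with TLR1 or TLR6 and CD14, and signals through MyD88, IRAK and TRAF6 to NF-kB and the MAP kinases, which drive chemokines such as CXCL8 (interleukin 8). Viral RNA is sensed by other receptors, among them IFIH1 (MDA5), which lead to interferon. Interferon acts through JAK kinases and a complex of transcription factors that binds the interferon-stimulated response element (ISRE) before genes such as ISG15, the IFIT and OAS families and the immunoproteasome.

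The 6 libraries held between 50628144 and 90599780 counts. Levels are given as CPM, the count of a gene relative to its library's total scaled by the trimmed mean of M values, for batches 1, 2 and 3 in that order. Of 14 hepatic stellate cell markers 8 had enough counts to be tested, with COL1A1 at 784 to 1437 CPM, while desmin (DES) stayed at or below 0.261 CPM. None of 8 hepatocyte markers could be tested, and their summed level was 0.613 to 1.96 CPM with PBS and 1.35 to 2.23 CPM with HIV-1+LTA. Of 12 T cell and macrophage markers only CD4 was tested; the list summed to 3.34 to 17.1 CPM with PBS and 4.65 to 21.0 CPM with HIV-1+LTA, and PTPRC, which marks white blood cells, stayed below 1 CPM. Of 9 endothelial and bile duct markers KRT7 and SOX9 were tested and neither passed.

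Interferon-stimulated genes, lysosomal and basement membrane genes were among those higher with HIV-1+LTA, and genes of the actin cytoskeleton, protein folding, ribosome assembly and several growth signals were among those lower. A gene is called higher or lower where DESeq2 with batch as a block gave an adjusted p below 0.05. The lists behind the lysosomal, basement membrane, actin, folding and ribosome groups were drawn up after the calls were seen. Most members of each did not pass. Of 12239 genes with an adjusted p, 118 were called higher (0.964%) and 118 lower (0.964%), or 1.93% in either direction. The differences were small: the median log2 fold change was 0.41 among the genes called higher and -0.32 among those called lower, and 4 calls reached 2-fold. These calls depended on the tool. edgeR's quasi-likelihood test and limma-voom with the same block called 0 of 16117 genes, with 2709 and 2752 genes at an unadjusted p below 0.05 and a lowest adjusted p of 0.205 and 0.206. DESeq2 and edgeR without the block also called 0, with 269 and 141 genes at an unadjusted p below 0.05. In a DESeq2 fit of only the 6 libraries compared, 4 genes were called higher (COL3A1, GRN, PLXNB2 and PSMB9) and 3 lower (EGF, FGF5 and HAS2). GRN, PLXNB2, PSMB9 and EGF were called in both fits. COL3A1, FGF5 and HAS2 are outside the naming rule and were picked out after their values were known.

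The 3 batches differed in how far treated and control libraries lay apart. Among the 118 genes called higher, the median log2 difference of HIV-1+LTA over PBS was 0.12 in batch 1, 0.51 in batch 2 and 0.63 in batch 3. Among the 118 genes called lower it was -0.04, -0.47 and -0.43. Over 9321 genes of at least 10 CPM, the standard deviation of the difference across genes was 0.0789 in batch 1, against 0.221 and 0.225 in batches 2 and 3. The differences correlated across those genes at r = 0.63 between batches 2 and 3, at -0.10 between batches 1 and 2 and at 0.13 between batches 1 and 3. Genes are not independent replicates, and all 3 values are descriptions. In batches 2 and 3 every called gene lay on the side of its call, and in batch 1 this held for 102 of the 118 higher and 87 of the 118 lower genes; of all tested genes, 16.3% lay above 0 and 20.4% below 0 in all 3 batches. Treated and control libraries did not overlap for 19 of the genes called higher and 15 of those called lower, where 1.62% and 1.86% of all tested genes showed this. The genes were called from these same libraries, so their sides and gaps follow in part from that selection.

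**Figure D1:**
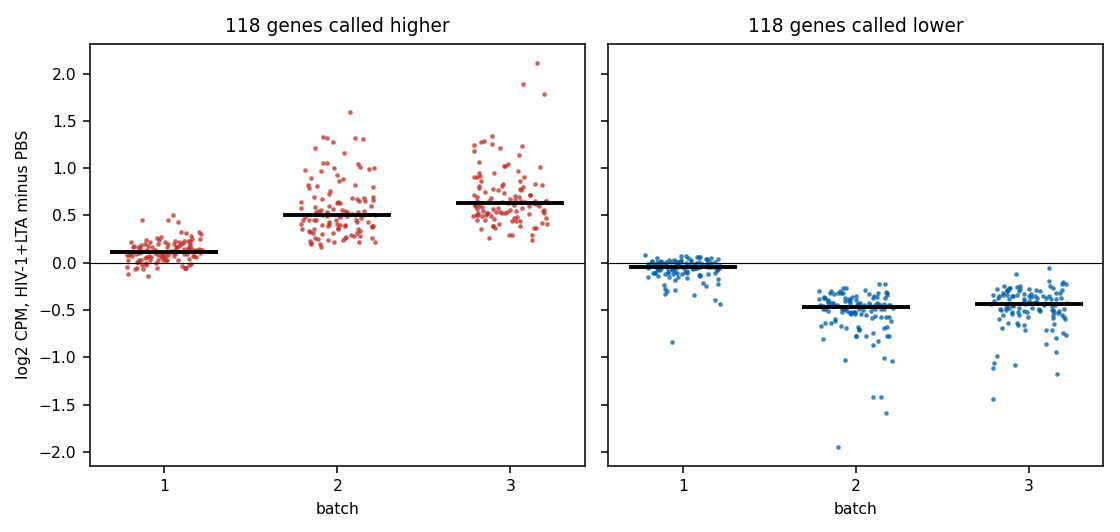
Log2 difference in CPM between the HIV-1+LTA and PBS libraries of each batch, for the 118 genes called higher (left) and the 118 called lower (right). Each point is 1 gene, spread sideways at random, and the black bars are medians; the medians of batch 1 are 0.12 and -0.04, nearer to 0 than those of batches 2 and 3.

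Leaving out single libraries changed the number of calls more than any scaling or filter did. Without HIV-1+LTA replicate 1, 926 genes were called higher and 1493 lower, and without PBS replicate 1 the counts were 202 and 396. Without PBS replicate 2 there were 0 calls in either direction, with 1015 genes at an unadjusted p below 0.05. Without PBS replicate 3, 2 genes were called higher and 1 lower, without HIV-1+LTA replicate 2 the counts were 0 and 2, and without HIV-1+LTA replicate 3 they were 1 and 3. The genes behind these small counts were UBBP4, KRT18P7 and LINC01986 without PBS replicate 3, GPR119 and ZNF816-ZNF321P without HIV-1+LTA replicate 2, and UBBP4, SCHLAP1, LOC100419700 and LOC102724849 without HIV-1+LTA replicate 3, all named after their values were seen. None of the 236 calls was among those that passed without any 1 of these 4 libraries, so each call named below was lost when PBS or HIV-1+LTA replicate 2 or 3 was left out. Without the libraries of batch 1, 576 genes were called higher and 1051 lower, and 231 of the 236 calls were among them.

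**Figure D2:**
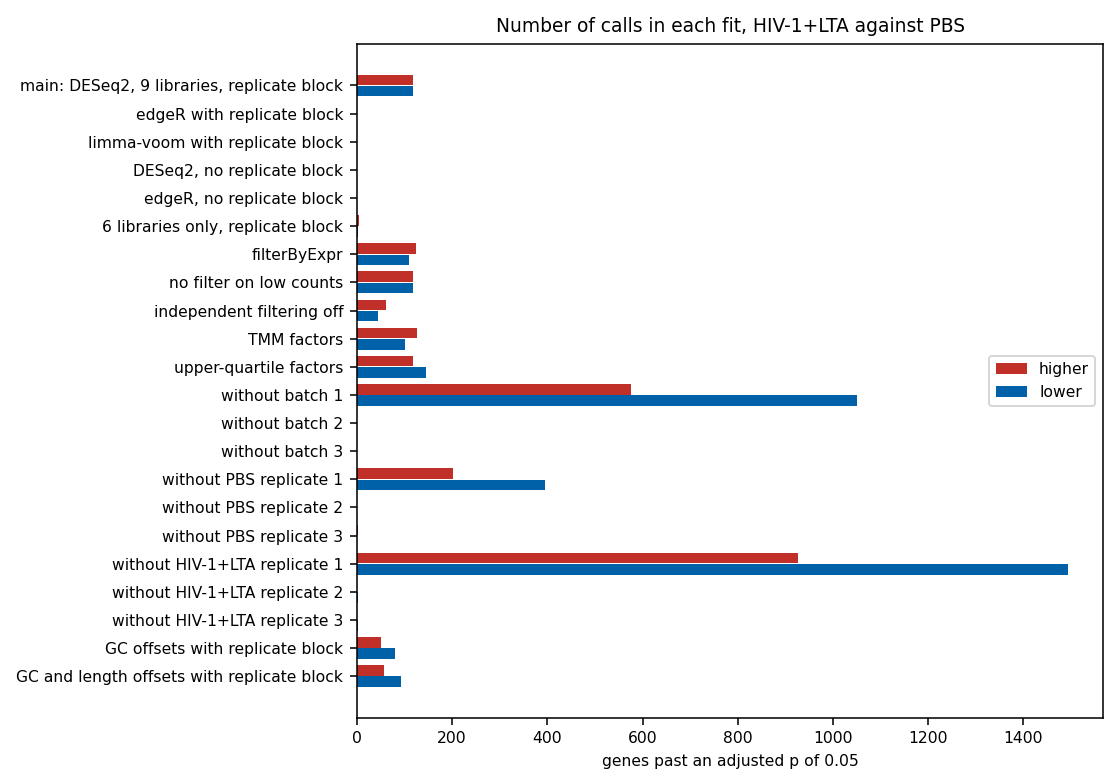
Number of genes past an adjusted p of 0.05 in each fit, higher (red) and lower (blue) in HIV-1+LTA against PBS; "without batch" leaves out all 3 libraries of that batch. The bars reach 926 and 1493 without HIV-1+LTA replicate 1 and are at or near 0 without a library of batch 2 or 3 and with edgeR or limma-voom.

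The fit splits the joint difference into a step from PBS to HIV-1 and a step from HIV-1 to HIV-1+LTA, which share the HIV-1 libraries and are given only side by side. For the genes called higher the medians were 0.05 for the first step and 0.40 for the second. For those called lower they were -0.07 and -0.25. The second step was the larger in the direction of the call for 114 of the 118 higher and 105 of the 118 lower genes. The first step had the sign of the call for 72 of the higher and 102 of the lower genes. Among the genes called in the joint comparison EGF, the epidermal growth factor, had the steps -0.61 and -0.41, and OAS2, an enzyme that makes the activator of RNase L, had 0.33 and 0.38.

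Of the 118 genes called higher, 29 were in any of the 28 lists first drawn up, and 23 of these were interferon-related. Across 7 lists of such genes, 125 members were tested; 23 rose, 2 fell and 100 did not pass, and the median log2 fold change was 0.21, against -0.02 over all tested genes. The medians within batches were 0.01, 0.40 and 0.24. All treated libraries lay above all controls for 6 of the 125 and below them for 0, against 1.62% and 1.86% of all tested genes. Without HIV-1+LTA replicate 1 the lists had 65 calls higher and without PBS replicate 1 they had 30; without PBS or HIV-1+LTA replicate 2 or 3 they had 0. Several of the genes are near copies of one another, such as BTN3A1, BTN3A2 and BTN3A3, or IFITM2 and IFITM3, so reads could be shared between them, and the strand setting of the counting is not given in the sources used here.

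The sequences just before the start sites of 6 of these genes show the element through which interferon acts. They are the 250 bases before the start of each gene from RefSeq (GRCh38.p14), printed 5′ to 3′ on the strand of the gene, with matches to the ISRE core (GAAA, any 2 bases, GAAA) on either strand in capitals.
ISG15, chr1:1013247-1013496, plus strand: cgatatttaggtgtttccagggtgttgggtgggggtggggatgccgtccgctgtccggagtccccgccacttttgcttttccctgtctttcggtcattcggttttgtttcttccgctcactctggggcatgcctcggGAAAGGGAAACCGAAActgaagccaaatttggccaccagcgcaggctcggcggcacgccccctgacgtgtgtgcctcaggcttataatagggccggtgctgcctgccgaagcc
IFIT3, chr10:89327747-89327996, plus strand: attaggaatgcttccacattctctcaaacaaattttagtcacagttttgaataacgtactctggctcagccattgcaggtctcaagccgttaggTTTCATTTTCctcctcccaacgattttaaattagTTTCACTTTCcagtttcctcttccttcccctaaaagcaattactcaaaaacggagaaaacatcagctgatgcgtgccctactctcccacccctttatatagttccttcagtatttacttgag
IFIH1, chr2:162318685-162318934, minus strand: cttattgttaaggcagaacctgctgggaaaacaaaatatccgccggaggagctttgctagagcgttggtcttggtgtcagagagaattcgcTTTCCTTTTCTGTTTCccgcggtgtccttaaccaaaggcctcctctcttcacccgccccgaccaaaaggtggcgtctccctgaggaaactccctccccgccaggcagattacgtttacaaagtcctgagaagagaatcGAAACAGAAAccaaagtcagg
DDX60, chr4:168318753-168319002, minus strand: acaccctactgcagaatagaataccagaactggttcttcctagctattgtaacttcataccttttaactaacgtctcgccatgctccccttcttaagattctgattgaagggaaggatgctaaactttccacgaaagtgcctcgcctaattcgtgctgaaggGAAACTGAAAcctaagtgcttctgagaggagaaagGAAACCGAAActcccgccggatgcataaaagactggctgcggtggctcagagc
OAS3, chr12:112938224-112938473, plus strand: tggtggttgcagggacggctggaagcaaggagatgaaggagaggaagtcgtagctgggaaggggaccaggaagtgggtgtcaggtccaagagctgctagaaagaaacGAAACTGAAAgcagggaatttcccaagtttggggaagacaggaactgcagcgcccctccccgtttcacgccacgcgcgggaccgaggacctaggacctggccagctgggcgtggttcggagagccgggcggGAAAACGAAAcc
IFITM3, chr11:320861-321110, minus strand: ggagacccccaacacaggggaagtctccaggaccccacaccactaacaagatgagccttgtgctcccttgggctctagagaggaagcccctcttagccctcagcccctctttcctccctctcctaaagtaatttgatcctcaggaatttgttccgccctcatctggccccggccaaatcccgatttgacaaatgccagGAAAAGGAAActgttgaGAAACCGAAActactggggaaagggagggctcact
These 6 were chosen for carrying a match, so their matches are a description. Among genes called higher, 96 had a promoter in the table, and 13 of these (13.5%) held the ISRE core in those 250 bases. It was held by 2 of 98 genes called lower (2.04%), by 233 of 9871 tested genes (2.36%) and by 839 of all 27305 promoters (3.07%). In the interferon-related lists, 11 of 18 genes called higher and 20 of 73 tested genes without a call held it. The only genes called higher that held it outside those lists were ARMC9 and MVP, both named after their values were seen. The 2 genes called lower that held it were CD274 and CDC42EP3, the latter named after its values were seen. Of the other motifs searched, TTCNNNGAA, the gamma-activated sequence, was held by 9 of 96 genes called higher, 11 of 98 called lower and 5.76% of tested genes. The NF-kB motif (GGGA, any 4 bases, CC) was held by 38 of 96 (39.6%), 26 of 98 (26.5%) and 27.5%. Its fixed letters are mostly G and C. Genes called higher had a median transcript GC content of 58.0%, against 47.3% over all tested genes. No share matched for GC content was counted, and a part of base composition in this difference was not tested. The AP-1 motif TGANTCA was held by 5 of 96, 7 of 98 and 3.70%. A match is a run of letters and no evidence that a factor bound there. All 4 motifs were first counted over 300 bases, including 50 after the start, where the ISRE core was held by 16 of 96, 2 of 98 and 280 of 9871.

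Of 15 tested RNA sensors and OAS genes, 4 rose and none fell. IFIH1, the sensor of long double-stranded RNA (hg19 chr2:163123584-163175194, minus strand), was at 4.72, 3.36 and 0.534 CPM with PBS and 5.24, 6.78 and 2.41 CPM with HIV-1+LTA. Each treated library was above the control of its own batch, while the groups overlapped because batch 3 lay low in both. Its log2 fold change was 1.00 (SE 0.255, DESeq2 adjusted p 0.0217). OAS2 was at 4.15, 3.09 and 2.71 CPM with PBS and 4.67, 6.44 and 5.14 CPM with HIV-1+LTA, and its groups did not overlap (0.71, SE 0.181, adjusted p 0.0215). OAS3 (chr12:113375856-113414265, plus strand), the largest of the OAS enzymes, was at 69.1, 66.6 and 28.1 CPM with PBS and 74.0, 97.4 and 40.9 CPM with HIV-1+LTA (0.39, SE 0.088, adjusted p 0.00716). DDX60, a helicase that promotes RNA sensing, rose by 0.41 on the log2 scale (SE 0.119), and its step from PBS to HIV-1 was -0.23. In batch 1 these 4 genes differed by 0.10 to 0.20.

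The effectors downstream of interferon gave 7 calls, all higher, among 27 tested, and 26 of the 27 had a log2 fold change above 0, as did 45.2% of all tested genes. ISG15, a ubiquitin-like protein that is attached to viral and host proteins (chr1:936518-949920, plus strand), was at 5.55, 7.24 and 6.35 CPM with PBS and 7.87, 9.56 and 9.57 CPM with HIV-1+LTA. All treated libraries lay above all controls, and batch 1 showed the same size of difference (0.50) as batches 2 and 3 (0.40 and 0.59). Its log2 fold change was 0.49 (SE 0.125, adjusted p 0.0195). IFIT3, which binds viral RNA with IFIT1 (chr10:91087064-91137230, plus strand), was at 29.0, 24.3 and 31.8 CPM with PBS and 30.6, 37.5 and 45.9 CPM with HIV-1+LTA. Batch 1 hardly differed and the groups overlapped (0.41, SE 0.1, adjusted p 0.0137). TRANK1 (0.69) and SECTM1 (0.81), both interferon-induced, had their highest treated level in batch 2, at 17.0 and 9.77 CPM. IFI35 rose by 0.57 (SE 0.164), the scramblase gene PLSCR1 by 0.28 (SE 0.0815) and the secreted glycoprotein gene LGALS3BP by 0.35 (SE 0.0833).

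Among 8 PARP and DTX3L genes 3 rose. PARP10, a mono-ADP-ribosyltransferase, was at 8.46, 9.72 and 5.08 CPM with PBS and 10.4, 12.9 and 10.3 CPM with HIV-1+LTA, with no overlap (0.57, SE 0.14). PARP14 (0.36, SE 0.0981) and DTX3L (0.33, SE 0.0951), the E3 ligase that partners PARP9, were at or slightly below the control in batch 1, at -0.03 and -0.02, and above it in batches 2 and 3. Of 20 tested HIV-1 restriction factors 2 rose, the membrane proteins IFITM2 and IFITM3, which block virus entry. IFITM3 (chr11:319676-329475, minus strand) was at 93.5, 90.4 and 52.2 CPM with PBS and 98.1, 126 and 80.6 CPM with HIV-1+LTA (0.39, SE 0.0881, adjusted p 0.00819). Of 8 tested GBP and APOL genes APOL6 rose (0.35, SE 0.1).

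Of 25 tested genes in the list of MHC class I, immunoproteasome and BTN3A genes, 6 rose, 2 fell and 17 did not pass. PSMB9, the immunoproteasome subunit that replaces a constitutive one when interferon acts (chr6:32811913-32827628, plus strand), was at 14.4, 12.6 and 11.7 CPM with PBS and 16.8, 24.8 and 22.5 CPM with HIV-1+LTA. All treated libraries were above all controls, and its log2 fold change was 0.72 (SE 0.137, adjusted p 0.00104). PSMB10, another such subunit, rose by 0.56 (SE 0.146), and HLA-F, a non-classical class I gene, by 0.55 (SE 0.158). BTN3A1, BTN3A2 and BTN3A3, surface proteins of the butyrophilin family, rose by 0.50, 0.51 and 0.50, with batch 1 at -0.05, 0.03 and -0.07. The 2 that fell encode the checkpoint ligands of PD-1. CD274 (PD-L1; chr9:5450503-5470566, plus strand) was at 30.1, 36.7 and 68.0 CPM with PBS and 31.2, 21.5 and 47.7 CPM with HIV-1+LTA (-0.41, SE 0.114, adjusted p 0.0336). PDCD1LG2 (PD-L2), its neighbour on chromosome 9, was at 15.7, 18.3 and 32.6 CPM with PBS and 14.7, 13.6 and 22.3 CPM with HIV-1+LTA (-0.36, SE 0.105). Both ligands lay lower in batches 2 and 3, and their groups overlapped.

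The genes that carry the interferon signal itself gave 0 calls among 22 tested interferon receptors, STATs and IRFs. Over all 12239 tested genes, 2232 were at an unadjusted p below 0.05 in DESeq2, 2478 in edgeR and 2497 in limma-voom. In this list 7 were in DESeq2 and 8 each in edgeR and limma-voom. The 2 with the lowest p were IRF3, a factor activated by sensors (0.26, SE 0.0918, adjusted p 0.0982), and IRF1 (0.34, SE 0.12, adjusted p 0.105). IFNB1 and IFNL1, named after their values were seen, had 0 counts in each of the 9 libraries.

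**Figure D3:**
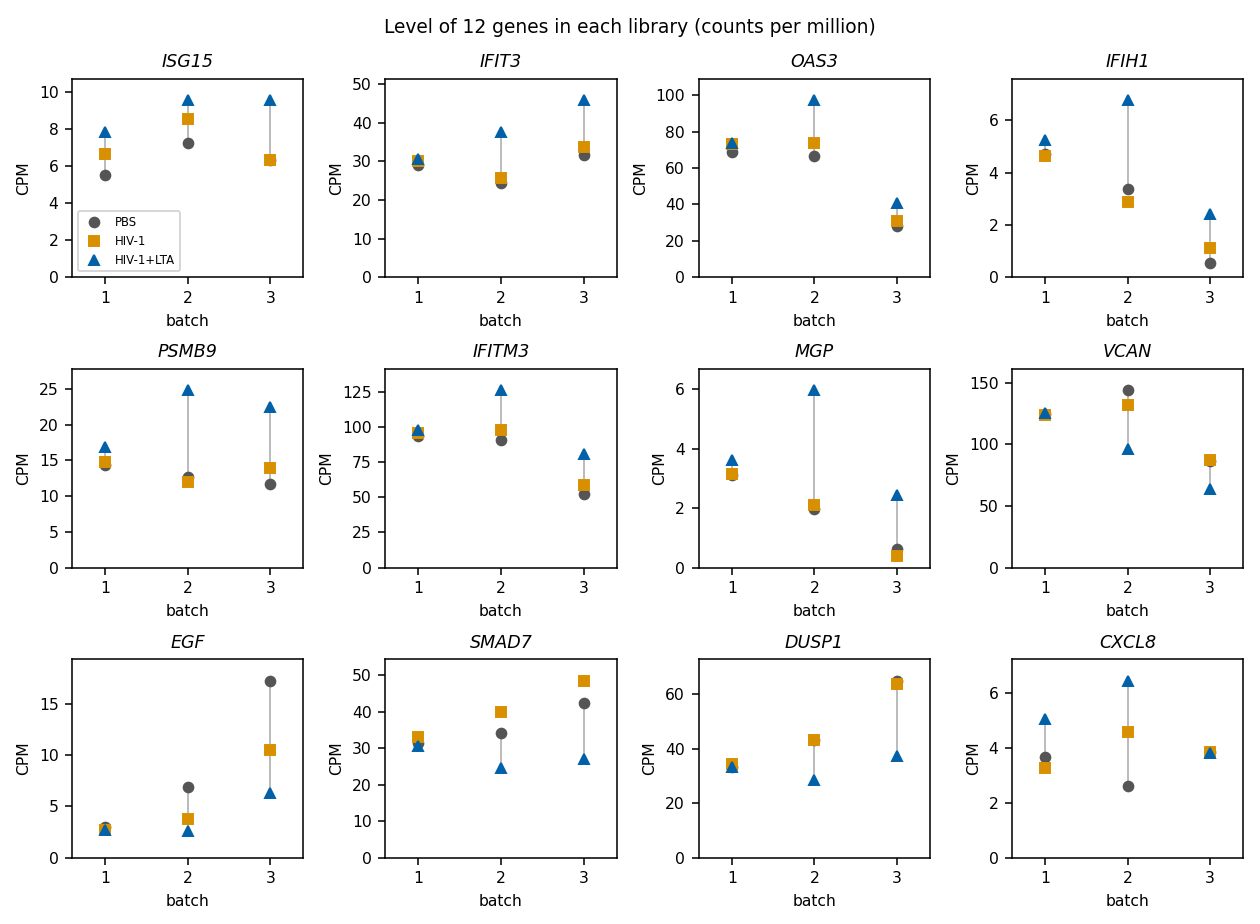
Level of 12 genes in CPM (vertical axes from 0) in each library, by batch; circles are PBS, squares HIV-1 and triangles HIV-1+LTA, and grey lines join the PBS and HIV-1+LTA libraries of a batch. In batches 2 and 3 the triangles of the 6 interferon-related genes and MGP lie above the circles and those of VCAN, EGF, SMAD7 and DUSP1 below, while in batch 1 most lie close together; CXCL8 shows no gap in batch 3, with 3.83 and 3.81 CPM.

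The receptors and adaptors through which LTA is sensed gave 0 calls among 23 tested. Of the 23, 4 were at an unadjusted p below 0.05 in each of DESeq2, edgeR and limma-voom. This was near the share over all 12239 tested genes, of which 2232 were in DESeq2, 2478 in edgeR and 2497 in limma-voom. CD14, the co-receptor that hands LTA to TLR2, was at 7.79, 6.51 and 2.31 CPM with PBS and 7.86, 9.74 and 4.16 CPM with HIV-1+LTA (0.44, SE 0.164, adjusted p 0.12). The list also gave IRAK3, a brake on the pathway, at 0.24 (SE 0.0905, adjusted p 0.13). TLR2 itself had 49, 28 and 1 counts with PBS and 28, 26 and 8 with HIV-1+LTA, too few for an adjusted p. It was named after its values were seen.

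Among 26 tested NF-kB genes only BIRC2, an inhibitor of apoptosis, was called, and it fell: it was at 76.9, 92.2 and 210 CPM with PBS and 78.5, 68.1 and 146 CPM with HIV-1+LTA (-0.31, SE 0.0925, adjusted p 0.0446). The list's median was 0.07. Chemokines and cytokines gave 0 calls among 12 tested, with a median of 0.32. Of the 12, 6 were at an unadjusted p below 0.05 in DESeq2 and limma-voom and 7 in edgeR. Among all 12239 tested genes, 2232 were in DESeq2, 2478 in edgeR and 2497 in limma-voom. CXCL8, the neutrophil chemokine named in the series title, was at 3.68, 2.60 and 3.83 CPM with PBS and 5.06, 6.44 and 3.81 CPM with HIV-1+LTA. The groups overlapped, since batch 3 showed no difference, and CXCL8 did not pass (0.58, SE 0.211, adjusted p 0.11). CSF1, a macrophage growth factor, was at 0.39 (SE 0.127, adjusted p 0.0698) and CCL26, an eosinophil chemokine, at -0.61 (SE 0.219, adjusted p 0.107).

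Of 36 tested stellate cell and matrix genes 4 fell, 1 rose and 31 did not pass, with a median of -0.04. VIM, the intermediate filament of mesenchymal cells (chr10:17270240-17279592, plus strand), was at 711, 783 and 3092 CPM with PBS and 696, 540 and 2424 CPM with HIV-1+LTA (-0.31, SE 0.0824, adjusted p 0.0276). The gap between batch 3 and the others was far larger than that between the treatments. LOX, which cross-links collagen, was at 141, 194 and 1222 CPM with PBS and 147, 122 and 938 CPM with HIV-1+LTA (-0.33, SE 0.094). The matrix proteins TNC (-0.29, SE 0.083) and VCAN (-0.34, SE 0.0939) also fell, and both were within 0.02 of the control in batch 1. MGP, an inhibitor of matrix calcification (chr12:15033798-15038791, minus strand), rose, from 3.11, 1.95 and 0.633 CPM with PBS to 3.62, 5.96 and 2.43 CPM with HIV-1+LTA (1.30, SE 0.303, adjusted p 0.0124). Without HIV-1+LTA replicate 1 or PBS replicate 1 the list had 12 calls lower, and without PBS or HIV-1+LTA replicate 2 or 3 it had 0. ACTA2, the smooth muscle actin that marks activated stellate cells, was at 96.3, 219 and 182 CPM with PBS and 113, 101 and 71.2 CPM with HIV-1+LTA. It lay below the control in batches 2 and 3 but above it in batch 1 and did not pass (-0.79, SE 0.401, adjusted p 0.272).

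Matrix turnover genes gave 1 call in each direction among 20 tested. TIMP1, the main inhibitor of matrix metalloproteinases in fibrotic liver, was at 219, 202 and 98.7 CPM with PBS and 214, 259 and 155 CPM with HIV-1+LTA (0.32, SE 0.0941, adjusted p 0.0446). SERPINB7, a protease inhibitor, fell by 0.66 on the log2 scale (SE 0.179). A list of basement membrane and elastic fibre genes was drawn up after the calls were seen, so its counts only describe them. It had 5 genes higher and 1 lower among 25 tested, with a median of 0.16, where 0.964% of all tested genes were called in each direction. The laminin chain LAMA5 was at 32.4, 35.1 and 11.6 CPM with PBS and 35.2, 53.3 and 18.1 CPM with HIV-1+LTA (0.44, SE 0.0995, adjusted p 0.00716). FBLN2, an elastic fibre glycoprotein, was at 52.8, 69.0 and 67.4 CPM with PBS and 60.1, 86.1 and 118 CPM with HIV-1+LTA (0.44, SE 0.0994). Agrin (AGRN, 0.32), EFEMP2 (0.31) and LTBP4 (0.51), which binds latent TGF-beta, rose as well, and TINAGL1 fell (-0.39, SE 0.108).

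Several genes of the actin and myosin cytoskeleton fell. A list of such genes was drawn up after the calls were seen, so its counts only describe it: 12 of 41 tested members fell, 29 did not pass and 4 had a log2 fold change above 0, with a median of -0.17. Genes of the same kind outside the list rose, among them GSN, which severs actin filaments (0.46, SE 0.112, adjusted p 0.0137), named after its values were seen, and the unconventional myosin MYO7A. The batch medians of the list were 0.03, -0.35 and -0.20. Of all tested genes 0.964% were called lower and 45.2% had a log2 fold change above 0. MICAL2, an enzyme that oxidises and takes apart actin filaments, was at 157, 219 and 418 CPM with PBS and 159, 143 and 300.1 CPM with HIV-1+LTA (-0.36, SE 0.0911, adjusted p 0.018). LPP, a focal adhesion protein, fell by 0.37 (SE 0.0976), and CORO1C, which turns over branched actin, by 0.29 (SE 0.0813). TPM4, a tropomyosin, was at 1771, 2084 and 2161 CPM with PBS and 1825, 1532 and 1665 CPM with HIV-1+LTA (-0.26, SE 0.0789, adjusted p 0.0481). The Arp2/3 complex, which starts branched filaments, had 2 of 9 subunits lower, ACTR2 (-0.28, SE 0.0782) and ACTR3 (-0.30, SE 0.085).

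The lists of folding, ribosome assembly and lysosomal genes were also drawn up after the calls were seen, and most of their members did not pass. Their counts therefore only describe them. Of all tested genes 0.964% were called in each direction and 45.2% had a log2 fold change above 0. Of 13 TRiC chaperonin and HSP90 genes 3 fell, and all 13 had a log2 fold change below 0, with a median of -0.17. CCT5, a subunit of the TRiC ring that folds actin and tubulin, was at 1590, 1575 and 1834 CPM with PBS and 1565, 1170 and 1466 CPM with HIV-1+LTA, with no overlap (-0.26, SE 0.0768, adjusted p 0.0439). Of 23 ribosome biogenesis genes 4 fell, among them GNL3 (nucleostemin, -0.31, SE 0.0883) and NPM1 (nucleophosmin, -0.26, SE 0.0782). Of 32 tested lysosomal genes 4 rose and 28 had a log2 fold change above 0, with a median of 0.12. GRN, the precursor of the lysosomal granulins (chr17:42422614-42430474, plus strand), was at 143, 171 and 78.0 CPM with PBS and 167, 231 and 137 CPM with HIV-1+LTA (0.49, SE 0.0963, adjusted p 0.0016). Each treated library was above its control by 0.22, 0.43 and 0.82. The acid glucosidase GAA (0.63), the protease CTSD (0.39) and the heparanase HPSE (0.49) were the other calls.

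Calls among growth factor and TGF-beta genes included EGF, FGF2, SMAD7 and FSTL3, which fell, and LTBP4 and the growth factor gene PTN (0.43, SE 0.113, adjusted p 0.0237), which rose; PTN was named after its values were seen. EGF, a ligand of the EGF receptor (chr4:110834039-110934922, plus strand), was at 3.01, 6.94 and 17.3 CPM with PBS and 2.75, 2.57 and 6.34 CPM with HIV-1+LTA (-1.03, SE 0.196, adjusted p 0.00104). Its fall was 1.42 in batch 2 and 1.44 in batch 3 on the log2 scale, against 0.13 in batch 1. DUSP1, a phosphatase that shuts off p38 and JNK, was at 33.2, 43.3 and 65.0 CPM with PBS and 33.4, 28.6 and 37.5 CPM with HIV-1+LTA (-0.46, SE 0.117). The other 22 tested genes of the MAPK and EGF list did not pass. FGF2, basic fibroblast growth factor, was at 131, 179 and 405 CPM with PBS and 132, 125 and 247 CPM with HIV-1+LTA (-0.41, SE 0.0981). Of 32 TGF-beta genes 2 fell and none rose. SMAD7, the inhibitor that TGF-beta induces against itself, was at 31.4, 34.3 and 42.5 CPM with PBS and 30.5, 24.5 and 27.0 CPM with HIV-1+LTA, without overlap (-0.38, SE 0.112, adjusted p 0.0413). FSTL3, an activin antagonist, fell by 0.48 (SE 0.125), also without overlap.

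Calcium and NFAT genes had 3 of 24 lower. NFATC2, a transcription factor that calcineurin activates, was at 3.28, 4.67 and 10.5 CPM with PBS and 3.01, 2.73 and 5.28 CPM with HIV-1+LTA (-0.64, SE 0.168). RCAN1, an inhibitor of calcineurin and a target of NFAT, fell by 0.28 (SE 0.0814) and the potassium channel gene KCNQ5 by 0.54 (SE 0.144). Among 22 NRF2 and iron genes FTH1, the ferritin heavy chain, rose without overlap, from 210, 194 and 206 CPM to 223, 272 and 243 CPM (0.27, SE 0.0747), and GCLM (-0.30), an enzyme of glutathione synthesis, and PRDX1 (-0.20), a peroxidase, fell. Single calls were EGR1 among 20 immediate early genes (0.42, SE 0.124) and the glycolytic enzyme ALDOC among 22 hypoxia genes (0.41, SE 0.123), both higher.

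Stress response genes (22 tested), p53 targets (18), cell cycle genes (24), mitochondrially encoded genes (13) and HIV-1 receptor genes (8) gave 0 calls each in DESeq2. edgeR and limma-voom called 0 of 16117 genes, so their lack of calls in these lists says nothing about the lists. Members of the lists at an unadjusted p below 0.05 in DESeq2 numbered 4, 5, 2, 1 and 4, where 2232 of all 12239 tested genes were. PSAT1 (-0.29, SE 0.0991, adjusted p 0.0858), an enzyme of serine synthesis, and BAX (0.23, SE 0.0828, adjusted p 0.11), which promotes apoptosis, had the lowest p in the first 2 lists. CD4, the main receptor of HIV-1, was at 13.7, 12.9 and 1.34 CPM with PBS and 14.0, 18.2 and 2.41 CPM with HIV-1+LTA (0.40, SE 0.143, adjusted p 0.107).

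**Figure D4:**
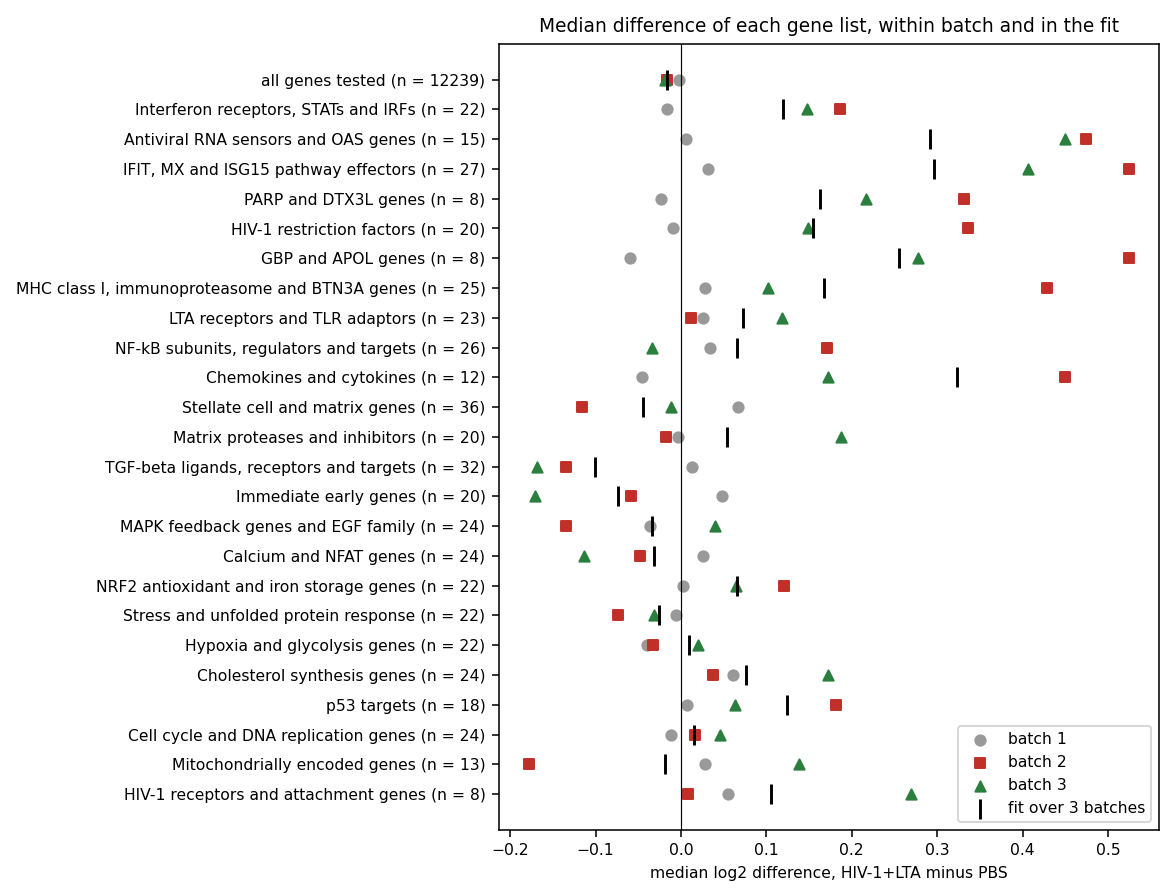
Median log2 difference between HIV-1+LTA and PBS over the tested members of each list with at least 8 tested members, within each batch (markers) and in the fit (black ticks); the top row holds all 12239 tested genes. The 6 interferon-related lists from the RNA sensors to the MHC class I genes have medians of at least 0.10 in batches 2 and 3 and near 0 in batch 1. The same holds for the interferon receptors, STATs and IRFs (-0.02, 0.19 and 0.15 in batches 1, 2 and 3). It also holds for the chemokines and cytokines (-0.05, 0.45 and 0.17).

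Outside the lists, genes with the highest fold changes included MYO7A, an unconventional myosin, which was at 2.83, 2.04 and 1.44 CPM with PBS and 3.56, 5.11 and 3.47 CPM with HIV-1+LTA, with no overlap (0.97, SE 0.218, adjusted p 0.00716). PPL (periplakin, 0.88), OLFML2A (an extracellular matrix protein, 0.83), GASK1B (0.75), FAXDC2 (0.67), ADAM22 (0.63) and PTGS1, which encodes cyclooxygenase 1 (0.63), were also higher. NTRK3, the neurotrophin 3 receptor, was at 2.94, 2.55 and 17.9 CPM with PBS and 3.56, 5.28 and 27.3 CPM with HIV-1+LTA (0.65, SE 0.14, adjusted p 0.00503). The tetraspanin gene CD82 (0.54, SE 0.117) and the semaphorin receptor gene PLXNB2 (0.45, SE 0.0918) had among the lowest p. On the lower side, PSG2, a pregnancy-specific glycoprotein whose near copies could share its reads, was at 0.345, 0.684 and 8.30 CPM with PBS and 0.269, 0.155 and 3.67 CPM with HIV-1+LTA (-1.22, SE 0.288, adjusted p 0.0135). NPR3, the natriuretic peptide clearance receptor, was at 5.86, 9.81 and 21.2 CPM with PBS and 4.83, 4.86 and 14.2 CPM with HIV-1+LTA (-0.63, SE 0.129, adjusted p 0.00246). PSMD2, a regulatory subunit of the proteasome, fell by 0.32 (SE 0.069), and GRPR, the receptor of gastrin-releasing peptide, by 0.56 (SE 0.167). SHC3, a neuronal adaptor protein, was lower by a like amount in every batch, at -0.39, -0.40 and -0.37.

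The base composition of the genes moved with the calls. The GC content of the longest transcript had a median of 58.0% among genes called higher, 44.1% among those called lower and 47.3% among all tested genes. With the tested genes cut into 5 equal groups by GC content, 62 of the richest group were called higher and 4 lower, and the median log2 fold change ran from -0.06 in the poorest group to 0.10 in the richest. In that richest group the batch medians were 0.04, 0.06 and 0.21. With per-gene GC offsets in the DESeq2 fit, added after the data were seen, 51 genes were called higher and 79 lower, and 96 of the 236 calls were among them. Such offsets are estimated from the same libraries and can also take away real differences. Genes called higher in the interferon-related lists had a median GC content of 48.7%, against 58.4% for the other 95. With GC offsets the interferon-related lists had 16 genes higher and 0 lower; CD274 and PDCD1LG2 were at -0.37 and -0.32 (adjusted p 0.0565 and 0.0758). Of the 23 genes called higher in the interferon-related lists 15 still passed. PSMB9 (0.74, adjusted p 0.00058), IFIT3 (0.45), OAS3 (0.39), IFIH1 (1.03) and DDX60 (0.45) passed, while ISG15 (0.35, adjusted p 0.122) and PARP10 (0.38, adjusted p 0.0986) did not. SECTM1, IFI35, LGALS3BP, IFITM2, HLA-F and PSMB10 did not pass either, at adjusted p 0.0758 to 0.0972. Of other genes named above, EGF (-0.99, adjusted p 0.00169), FGF2 (-0.36, adjusted p 0.0211) and SMAD7 (-0.45, adjusted p 0.0312) passed. FSTL3 (-0.64, adjusted p 0.179), DUSP1 (-0.50, adjusted p 0.226) and MGP (1.39, adjusted p 0.144) did not. Others named above that did not pass included LOX, VCAN, TIMP1, BIRC2, EGR1, ALDOC, RCAN1, GCLM, PRDX1, GAA, PPL and GRPR. The adjusted p of these genes in that fit ran from 0.0557 to 0.138. Of the calls in the stellate and matrix list 2 were kept, VIM and TNC. The lysosomal list had 2 calls and the basement membrane list 1 higher and 1 lower in that fit; LAMA5 was at 0.26 (adjusted p 0.151) and AGRN at 0.13 (adjusted p 0.419). Of the 12 cytoskeletal calls 4 passed, and none of the calls in the Arp2/3, chaperonin and ribosome biogenesis lists did in that fit. The medians with GC offsets were -0.21 for the cytoskeletal list, -0.05 for Arp2/3, -0.15 for the chaperonin list, -0.19 for ribosome biogenesis, 0.11 for the lysosomal list and 0.10 for the basement membrane list.

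**Figure D5:**
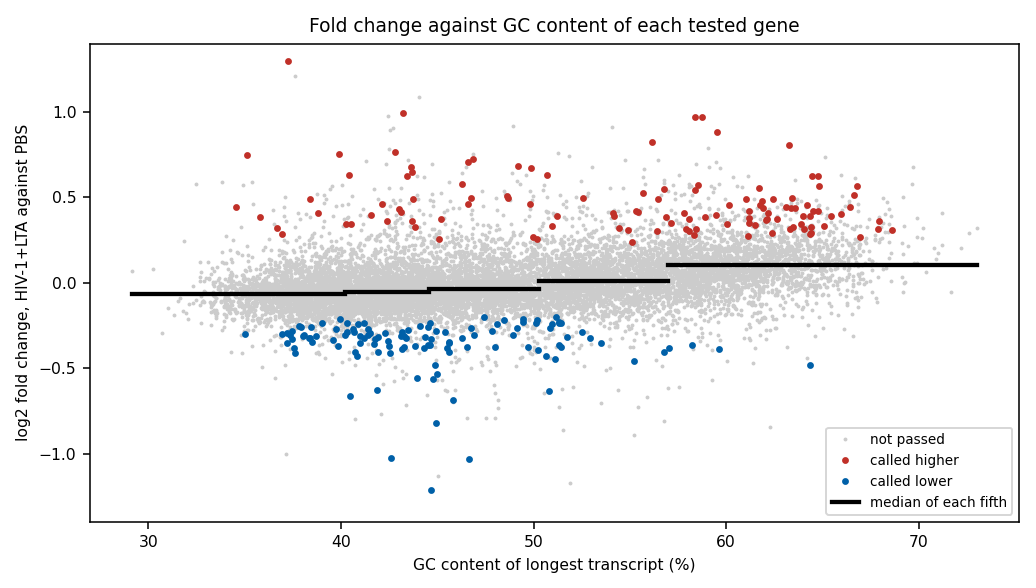
Log2 fold change of HIV-1+LTA against PBS for each tested gene against the GC content of its longest transcript in percent; red and blue points are genes called higher and lower, and black lines give the medians of 5 equal groups by GC content. The medians run from -0.06 to 0.10, and 62 red points lie in the richest group; 3 genes lie outside the vertical axis.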

How the data were processed

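RNA-seq libraries of LX-2 cells were mapped to hg19 and counted per gene by the authors with STAR and HTSeq, per the labels and the submitters' processing notes; versions and strand setting are not given in the sources used here. The deposited counts are raw reads per gene. The authors' deposited table of 1 comparison holds a mean signal of normalised counts, log2 fold changes, a Wald score and p-values, and names no comparison; its log2 fold changes were within 0.01 of those fitted here for 19990 of 19990 genes, and its 236 calls were the same genes.

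DESeq2 1.42.0 (R 4.3.3) was fitted to all 9 libraries with batch and group, over 19990 genes (total count 10 or more), with two-sided Wald tests, independent filtering and Benjamini-Hochberg adjustment. This tool follows the series' text, and it was chosen with earlier results of these data known, in which edgeR made 0 calls. edgeR 4.0.16 and limma 3.58.1 (voom) were run as alternatives, with other scalings, filters and left-out libraries. GC offsets were added after the data were seen. CPM were scaled with edgeR's TMM; log2 CPM used a prior count of 2. The members and the 28 gene lists were chosen with earlier results of these data known, and 6 further lists after the calls were seen, so no list is independent evidence. Genes were named by rule: CXCL8 and ACTA2; among calls of at least 1 CPM moving the same way in all 3 batches, the 15 with the largest change and the 5 with the lowest p in each direction; any call within the 28 lists, or the 2 members with the lowest p of a list without calls; and up to 6 calls that differ in 1 batch. Genes of the 6 further lists, cell markers and others outside the rule were picked out with their values known. Coordinates are hg19 (GENCODE), promoters RefSeq GRCh38.p14, matched by symbol. The correlations of same-numbered PBS and HIV-1+LTA libraries' deviations from their group means were 0.817, 0.878 and 0.968; PBS replicate 1 with HIV-1+LTA replicate 2 gave 0.873, so batches 1 and 2 were not separated this way, and the pairing rests on the labels, which give the number as a batch. The code was tested on simulated data, where both DESeq2 and edgeR made false calls above their nominal rate. Both also missed part of the changes at every size simulated, the largest included. The recovery required of the test was lowered after it was first not met. ChIP samples were not used here. Some results on single genes are not reported here.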

Additional observations from a re-analysis of the deposited data

How the results depend on the processing

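All 236 called genes kept their direction in every setting run, while the number past the threshold did not hold. With the replicate block, limma-voom and edgeR called 0 higher and 0 lower, as did DESeq2 and edgeR with no replicate block, against 118 and 118. The interferon-related and stellate lists then had 0 calls. The 6 libraries alone gave 4 higher and 3 lower, with 1 interferon-related gene higher. Of the stellate list COL3A1 was higher and HAS2 lower in that fit. With independent filtering off, 61 were higher and 45 lower, with 13 interferon-related and 1 stellate call. GC offsets gave 51 higher and 79 lower, GC and length offsets 56 higher and 93 lower; both were chosen after seeing the data. Leaving out a library or batch gave 0 to 926 higher and 0 to 1493 lower, 0 to 65 interferon-related genes higher, 0 to 14 stellate genes lower, and 0.24 to 0.86 for CXCL8, which passed in no setting. SOX9, at -0.01, was at 0.0145 with DESeq2 without the block, 0.0241 with edgeR without it, and from -0.13 to 0.18 with a library or batch left out: 0.16 without replicate 2, 0.05 without PBS replicate 2 and 0.18 without HIV-1+LTA replicate 2. The cause of these changes was not tested. Depth limits genes such as TLR2, which had too few counts for an adjusted p.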
